A study of Homo sapiens with 16 samples.

Results

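The 2'-5' oligoadenylate synthetase (OAS) family was followed in LNCaP cells, a human prostate cancer line that expresses the androgen receptor, after depletion of SLIRP, an RNA-binding protein. Its members were found by gene symbol, which gave 4 genes (OAS1, OAS2, OAS3 and OASL) of the 20531 entries in the table. The family was chosen from measured values: its lower levels after SLIRP siRNA were already known when it was picked, so levels in the SLIRP siRNA comparison are given below as a description with no test. RNA was sequenced from 16 libraries in 4 groups of 4. All cells received siRNA at 40 nM, either a nonsense control (NS) or a pool against SLIRP, followed by ethanol vehicle (Veh) or 1 nM dihydrotestosterone (DHT), an androgen, in serum-free medium. Both arms were thus transfected with double-stranded RNA, and no untransfected cells are analysed here. Per the methods the control was a custom nonsense sequence, whereas the SLIRP siRNA was a pool of other sequences. Loss of SLIRP and a difference between these siRNA reagents therefore cannot be told apart here.

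OAS enzymes are sensors of double-stranded RNA. On binding it, OAS1, OAS2 and OAS3 join ATP into short 2'-5' linked oligoadenylates (2-5A), which switch on an endoribonuclease that cuts viral and cellular RNA. OASL resembles them but makes no 2-5A, and is known to help the RNA sensor RIG-I. Genes of the family are classic targets of interferon, whose receptors act through Janus kinases and the transcription factor ISGF3.

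The 16 libraries held between 436353 and 1689708 counts, so 3 counts in a library, used as the limit of detection, corresponded to a level between 1.76 and 6.89 CPM (counts scaled to the size of the library). Such floors and the count intervals below cover counting error only. SLIRP, listed under its earlier symbol C14orf156, lay between 44.7 and 62.86 CPM in the NS libraries and between 1.4 and 7.98 in the SLIRP siRNA libraries, without overlap. The summed level of 7 luminal prostate markers ran from 3340 to 3840 CPM in NS libraries and from 2530 to 2790 in SLIRP siRNA libraries. The markers did not share one direction. With vehicle FOLH1, the most abundant, was at 2082 ± 58.3 CPM in NS and 1308 ± 60.8 in SLIRP siRNA cells, KRT18 at 373.5 ± 45.8 and 349 ± 36.6, and KLK3, an androgen target, at 39.1 ± 13.6 and 95.8 ± 3.45 (SD, n = 4 each). KLK2 was also higher in value after SLIRP siRNA. The part of these shifts in the results below was not tested. The immune markers PTPRC, CD3E and MS4A1 and the fibroblast marker DCN had 0 counts in all 16 libraries, and the summed level of the 6 immune markers was between 0 and 7.93 CPM and that of the 5 fibroblast markers between 11.4 and 26.1 CPM. In such bulk samples, fewer expressing cells and less RNA per cell cannot be told apart.

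OAS1, OAS3 and OAS2 lie side by side on the plus strand of chromosome 12, and OASL stands apart on the minus strand. In the hg19 annotation OAS1 (Entrez 4938) spans chr12:113343661-113371024, OAS3 (4940) chr12:113375856-113414265, OAS2 (4939) chr12:113416200-113449528 and OASL (8638) chr12:121455566-121477049. OAS1 and OAS3 are 4831 bases apart, OAS3 and OAS2 are 1934 bases apart, and 8006037 bases lie between OAS2 and OASL. An antisense noncoding gene (ENSG00000257452) overlaps OAS1, OAS3 and OAS2. Whether the counting used strand is not given in the sources used here, so reads from the antisense gene cannot be told apart from theirs.

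The genes next to OAS1 and OAS2 were looked at as well, and were close to 0 in all groups. RPH3A, which lies 6974 bases from OAS1, had at most 5 counts in any library, and DTX1, 45006 bases beyond OAS2, had 1 read in all.

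The upstream sequences are shown because the members share an inducer. Interferon response elements contain pairs of GAAA, and the 250 bases before the RefSeq start (assembly GRCh38.p14, a different build from the gene positions above) could be matched for 2 of the 4 members, OAS1 at chr12:112906712-112906961 and OAS3 at chr12:112938224-112938473, both on the plus strand. Capitals mark matches to GAAANNGAAA or GAAANGAAA, searched on both strands, the latter motif chosen after the OAS1 sequence was seen.
OAS1: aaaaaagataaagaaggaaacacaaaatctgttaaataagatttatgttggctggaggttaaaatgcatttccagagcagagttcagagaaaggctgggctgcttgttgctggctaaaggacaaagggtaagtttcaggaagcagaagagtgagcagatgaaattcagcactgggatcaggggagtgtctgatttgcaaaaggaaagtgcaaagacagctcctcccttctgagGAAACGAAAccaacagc
OAS3: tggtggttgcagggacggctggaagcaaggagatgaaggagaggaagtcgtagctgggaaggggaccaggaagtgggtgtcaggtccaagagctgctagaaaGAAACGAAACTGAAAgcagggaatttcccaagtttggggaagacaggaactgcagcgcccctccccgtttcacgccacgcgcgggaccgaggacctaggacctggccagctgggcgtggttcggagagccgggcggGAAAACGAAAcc

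OAS1 held 1 match, GAAACGAAA, from 17 to 9 bases before the start. OAS3 held GAAAACGAAA from 12 to 3 bases before the start, and further up GAAACTGAAA from 143 to 134, which overlaps GAAACGAAA from 148 to 140. Among all 35116 promoters of this length in the table, 3.02% held GAAANNGAAA, 2.69% held GAAANGAAA and 5.48% held either. A match is a description of letters and not a site of binding. OAS2 and OASL were not among the matched entries. Either motif was in 13 of 17 matched promoters of other interferon-stimulated genes, 3 of 4 of the IFIT family, 2 of 4 of ISG15 conjugation, 4 of 9 of interferon ligands, 2 of 6 of sensors of double-stranded RNA, and in 0 of 8, 0 of 3 and 0 of 2 of the receptors and kinases, the ISGF3 and interferon regulatory factors, and the 2-5A pathway.

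After SLIRP siRNA 3 members, OAS1, OAS2 and OASL, were left near the limit of detection, whereas OAS3 stayed at 56.1% of its NS level with vehicle and 57.6% with DHT. These percentages, and the folds and gaps between siRNA groups that follow, describe the comparison that chose the family. How many of all genes had such gaps is not given here. For SLIRP siRNA against NS, 2319 of 10684 genes passed an adjusted p of 0.01 with vehicle and 2607 with DHT (edgeR). DHT moved no member past the test in NS cells, and did not move OAS3, the one member with enough reads for this test, past it in SLIRP siRNA cells. The values of each member are given in turn, from the 3 synthetases to the family member that makes no 2-5A.

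OAS1, the smallest of the synthetases, was at 33.7, 27.6, 31.4 and 20.7 CPM in the NS-Veh libraries (replicates 1 to 4) and at 29.1, 38.2, 24.2 and 34.8 CPM in the NS-1nM DHT libraries. In the SLIRP-Veh libraries it was at 2.94, 1.55, 2.67 and 1.74 CPM, and in the SLIRP-1nM DHT libraries at 1.29, 1.40, 1.93 and 3.19 CPM. The lowest NS library, at 20.7 CPM, thus stood well above the highest SLIRP siRNA library, at 3.19 CPM. In all, 257 reads were counted in NS libraries and 18 in SLIRP siRNA libraries. Scaled for library size, the NS level was 13.4 times that after SLIRP siRNA (95% exact counting interval 8.33 to 23). The log2 fold change of SLIRP siRNA against NS was -3.50 (SE 0.36) with vehicle and -3.84 (SE 0.36) with DHT.

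OAS2, which holds 2 related OAS units in one protein, was the least abundant member. It was at 23.8, 11.5, 16.4 and 10.4 CPM in NS-Veh and at 22.9, 19.1, 6.91 and 16.7 CPM in NS-1nM DHT libraries. After SLIRP siRNA, 1 read was found in each of 2 vehicle libraries and in 1 DHT library, and the other 5 libraries had 0 counts, so that every SLIRP siRNA library was at or under the limit of detection. The NS libraries held 133 OAS2 reads against 3 in the SLIRP siRNA libraries, a scaled ratio of 41.7 with a counting interval from 14 to 205. This interval is wide because it rests on 3 reads. OAS2 did not pass the low-count filter of the comparison over all 16 libraries, and the fitted log2 fold changes of -4.67 (SE 0.65) with vehicle and -5.41 (SE 0.70) with DHT depend on the prior count.

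OAS3, the largest synthetase, had the smallest fold change of the 4 members. It was at 85.3, 59.7, 107 and 74.1 CPM in NS-Veh and at 93.6, 103, 105 and 74.7 CPM in NS-1nM DHT libraries. It was still at 48.7, 57.5, 41.4 and 35.7 CPM in SLIRP-Veh and at 46.6, 43.4, 59.8 and 66.2 CPM in SLIRP-1nM DHT libraries. With vehicle alone or DHT alone the siRNA groups did not overlap, but the highest SLIRP siRNA library (66.2 CPM, with DHT) exceeded the lowest NS library (59.7 CPM, with vehicle). The log2 fold change was -0.92 (SE 0.17) with vehicle and -0.75 (SE 0.16) with DHT, and -0.84 (SE 0.13) over all libraries. The scaled ratio of NS to SLIRP siRNA was 1.80 (counting interval 1.60 to 2.04). With 26 to 164 reads in each library, OAS3 was the one member measured above the limit of detection in all 16.

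OASL was at 87.3, 89.6, 85.1 and 65.3 CPM in NS-Veh and at 162, 112, 87.3 and 61.7 CPM in NS-1nM DHT libraries. The highest and the lowest of the 8 NS values were thus both found with DHT. After SLIRP siRNA OASL was at 6.46, 3.11, 2.67 and 0.870 CPM with vehicle and at 2.59, 0, 1.93 and 3.19 CPM with DHT, and no library overlapped with NS. The first SLIRP-Veh library held 11 of its 24 reads in the SLIRP siRNA arm, against 783 reads in the NS arm. The scaled ratio was 30.7 (counting interval 20.5 to 48.2), and the log2 fold change was -4.37 (SE 0.36) with vehicle and -5.54 (SE 0.38) with DHT.

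**Figure D1:**
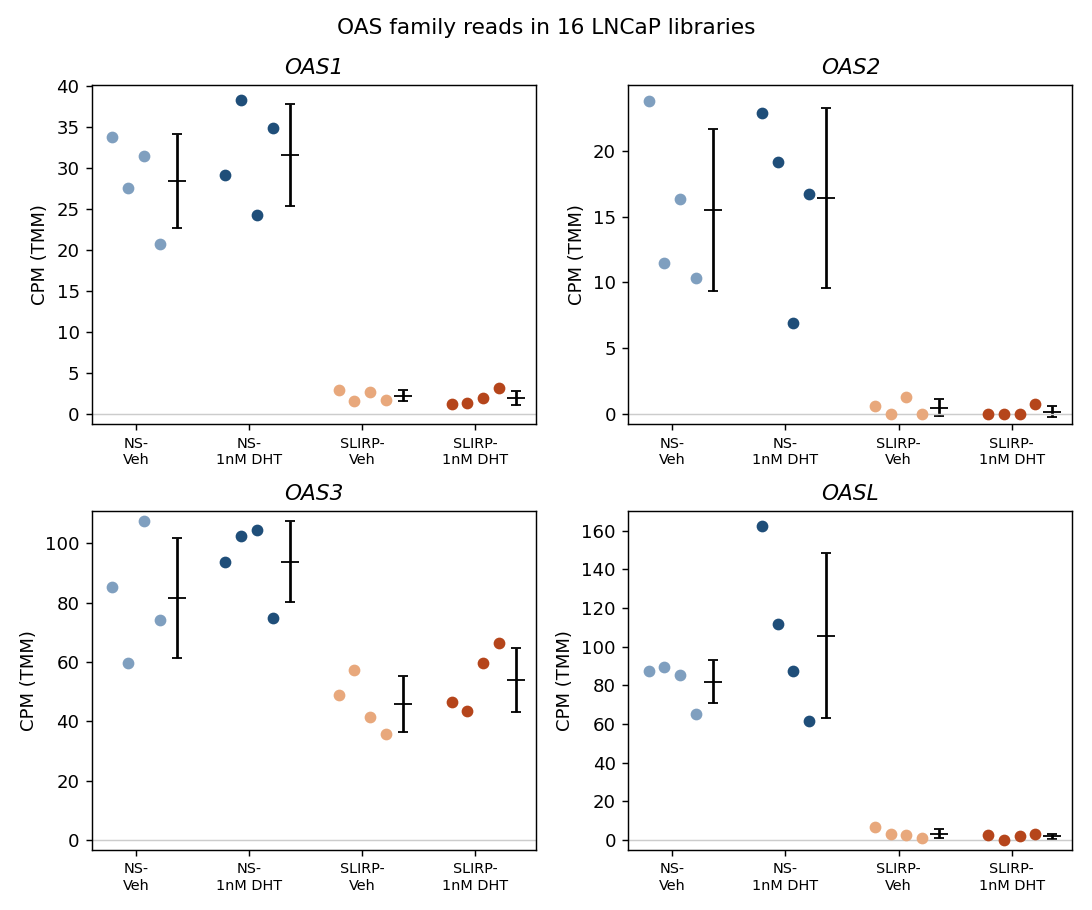
Level of OAS1, OAS2, OAS3 and OASL in CPM (TMM scaling, linear axes that differ between panels) in the 4 libraries of each group. Points are libraries and bars show the mean ± SD (n = 4). OAS1, OAS2 and OASL lie near 0 in every SLIRP siRNA library, whereas OAS3 lies between 35.7 and 66.2 CPM there.

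The make-up of the family's reads differed between the siRNAs. In NS-Veh libraries OAS3 took 41.8% of the 779 reads of the family, OASL 37.9%, OAS1 13.2% and OAS2 7.06%. In SLIRP-Veh libraries 87.3% of 220 reads came from OAS3 (exact binomial 95% interval 82.1 to 91.4), and in SLIRP-1nM DHT libraries 92.6% of 229 reads (88.4 to 95.6). The reads left in SLIRP-depleted cells were therefore mostly those of 1 member.

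Levels can be set against each other only per transcript length, for which the canonical transcripts of 1631 (OAS1), 4622 (OAS2), 6599 (OAS3) and 3270 bases (OASL) were used. In NS-Veh libraries OASL came first with 25.0 ± 3.41 CPM per kb, followed by OAS1 with 17.4 ± 3.50, OAS3 with 12.4 ± 3.05 and OAS2 with 3.35 ± 1.32 (SD, n = 4). The libraries of OASL (lowest 19.97) and OAS1 (highest 20.7) overlapped in this order, as did those of OAS1 and OAS3, whereas OAS3 (lowest 9.05) lay above OAS2 (highest 5.15) in every library. With the length of all annotated exons together OAS3 (4.52) came before OAS1 (2.18). In NS-1nM DHT libraries the order was the same, at 32.3 ± 13.1, 19.4 ± 3.80, 14.2 ± 2.06 and 3.55 ± 1.48 CPM per kb. OAS3 led after SLIRP siRNA, at 6.94 ± 1.43 with vehicle and 8.18 ± 1.64 with DHT. OAS1 (1.36 ± 0.417) and OASL (1.00 ± 0.713) could not be ordered in SLIRP-Veh libraries beyond their spread.

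**Figure D2:**
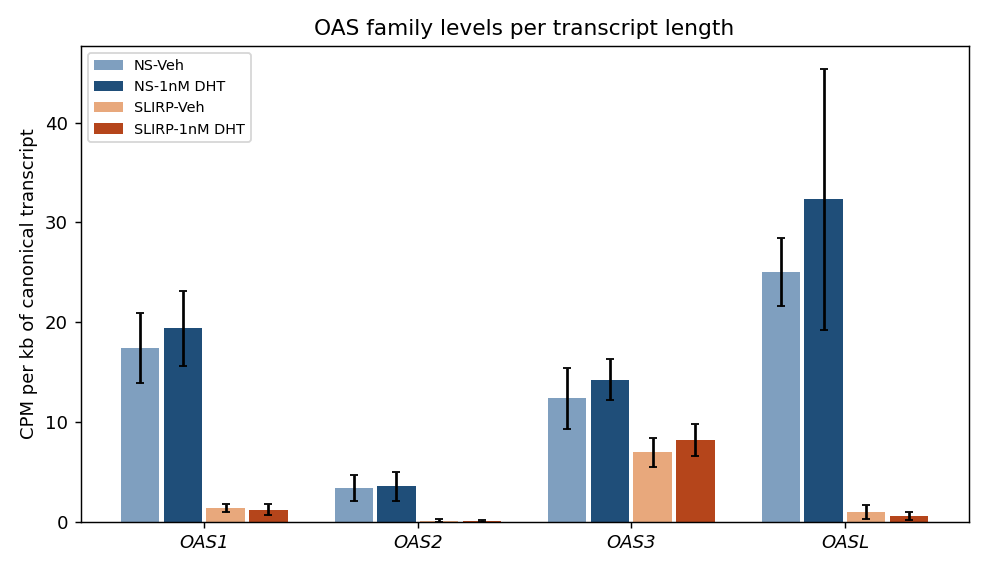
Level of each member in CPM per kb of its canonical transcript in the 4 groups. Bars are means and error lines the SD (n = 4). In NS libraries the mean of OASL is highest, at 25.0 with vehicle, and in SLIRP siRNA libraries OAS3 is, at 6.94 with vehicle.

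Whether androgen changes the family was asked separately in cells with either siRNA. DHT against vehicle did not choose the family, so tests are given (edgeR quasi-likelihood fits, p adjusted by Benjamini-Hochberg across every gene in the fit, threshold 0.01). In NS cells 136 of 10367 genes passed (1.31%), and none of the 4 members did, at that threshold or at an unadjusted p of 0.05. Of all genes in this fit, 1478 had an unadjusted p up to 0.05. Log2 fold changes were 0.20 (SE 0.20, adjusted p = 0.744) for OAS1, 0.12 (SE 0.31, adjusted p = 0.918) for OAS2, 0.11 (SE 0.14, adjusted p = 0.801) for OAS3 and 0.36 (SE 0.18, adjusted p = 0.373) for OASL. The 95% interval for OASL ran from -0.01 to 0.74, with the lower bound nearest to 0 among the members. DESeq2 gave an adjusted p for 2 members and called 0 of them, and limma, fitted to the normalized values, called 0 of 4. In SLIRP siRNA cells 125 of 10684 genes passed (1.17%). OAS3 did not, with a log2 fold change of 0.29 (SE 0.18, unadjusted p = 0.119, adjusted p = 0.471). OAS1, OAS2 and OASL entered this fit only through their NS libraries and held 10 against 8, 2 against 1 and 16 against 8 reads with vehicle and DHT, too few for a test. Their fitted values were -0.15 (SE 0.61), -0.62 (SE 1.38) and -0.79 (SE 0.78), and they do not show that DHT was without effect.

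The precision differed widely between the arms. In NS cells the 95% interval of the DHT response was -0.22 to 0.61 on the log2 scale for OAS1 and -0.18 to 0.40 for OAS3. In SLIRP siRNA cells the OAS3 interval was similarly narrow (-0.08 to 0.67), but that of OAS1 ran from -1.39 to 1.10, that of OASL from -2.38 to 0.79 and that of OAS2 from -3.41 to 2.17. A DHT response of OAS1, OAS2 or OASL in SLIRP siRNA cells was thus not detectable at this depth.

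The DHT response was also compared between siRNAs. No gene of 10684 passed (0%) in edgeR, although 388 had an unadjusted p up to 0.05, and DESeq2 and limma called 0 as well. For the members the difference in response on the log2 scale was -0.34 (SE 0.67) for OAS1, -0.74 (SE 1.46) for OAS2, 0.17 (SE 0.24) for OAS3 and -1.16 (SE 0.81) for OASL. OAS3 had an unadjusted p of 0.488. The other values rest on 18, 3 and 24 reads in the SLIRP siRNA arm for OAS1, OAS2 and OASL, too few for a test.

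**Figure D3:**
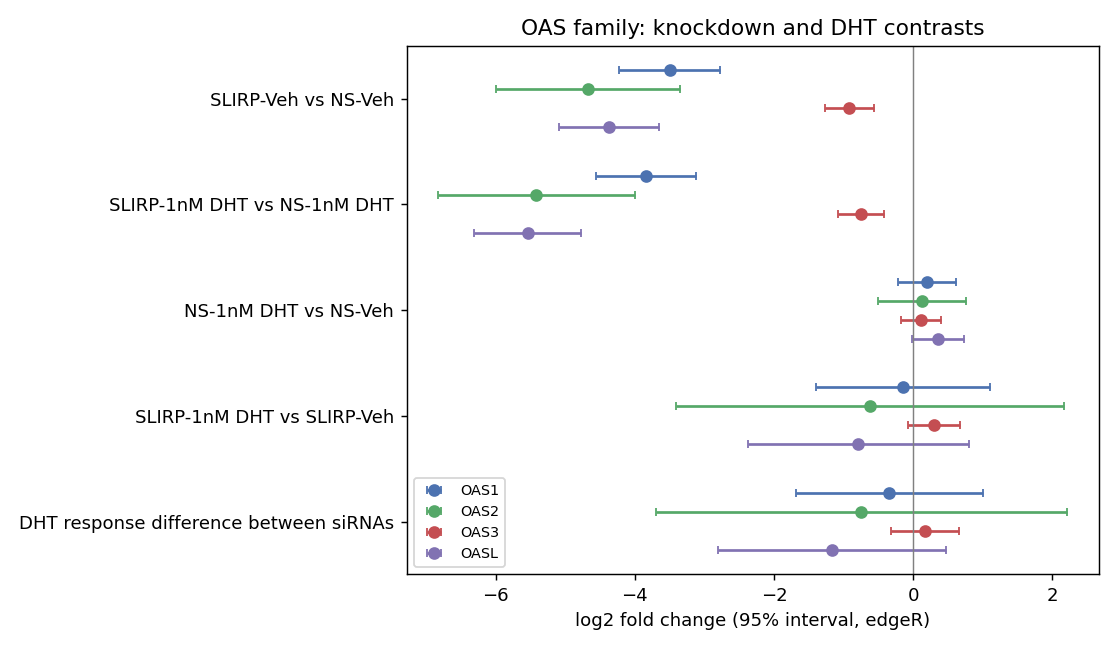
Log2 fold change of each member (horizontal axis, points) with its 95% interval (lines) from edgeR, for SLIRP siRNA against NS with vehicle or DHT, for DHT against vehicle with either siRNA, and for the difference between the DHT responses. In the SLIRP siRNA comparisons OAS3 lies at -0.92 and -0.75 and the other members at -3.50 or below, and all DHT intervals include 0.

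The genes around the family in its pathway were taken from lists written with earlier results of these data known. In the comparison of SLIRP siRNA with NS over all 16 libraries, 17.4% of 10167 genes were lower and 17.8% higher at an adjusted p of 0.01, and the median log2 fold change of all genes was -0.01. The counts of each list are descriptions beside these shares.

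Downstream of OAS, the list of 2-5A pathway genes held 3 tested genes, of which 2 were lower and 1 higher. PDE12, a phosphodiesterase that degrades 2-5A, had a log2 fold change of -1.05 (SE 0.12). ABCE1, a ribosome recycling factor known as an inhibitor of the 2-5A activated endoribonuclease, had a value of 0.55 (SE 0.08), in the opposite direction. ABCE1 was at 149 ± 15.6 CPM in NS-Veh and 220 ± 18.2 CPM in SLIRP-Veh libraries (SD, n = 4).

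Of the other sensors and enzymes of double-stranded RNA, 5 of 9 were tested, 2 were lower and none higher, with a median of -0.43. DDX58, which encodes the sensor RIG-I, had -1.42 (SE 0.15). ADAR, which edits adenosines in double-stranded RNA, had -0.43 (SE 0.06), and IFIH1, the sensor MDA5, had -0.48 (SE 0.17) and was not called. OAS1 and OASL, themselves sensors or helpers of sensors, had -3.68 (SE 0.24) and -4.92 (SE 0.28) in the same comparison.

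Upstream, transcripts of interferons themselves were almost absent. None of 9 ligands passed the low-count filter, 6 had 0 counts in every library, and 5 reads in all were found over the 16 libraries, from IL29, IFNB1 and IL28B. Of 9 receptors and kinases 7 were tested and none was called, with a median of 0.06 and 1 at an unadjusted p up to 0.05. Over all genes, 5401 of 10167 reached that p. IFNGR2, a subunit of the interferon gamma receptor, had -0.32 (SE 0.12), IL10RB, a subunit of the lambda receptor, had 0.30 (SE 0.18) and the kinase TYK2 had -0.25 (SE 0.13).

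Among ISGF3 and the interferon regulatory factors, 6 of 7 were tested, 3 were lower and 1 higher. IRF9, the DNA-binding subunit of ISGF3, had the lowest value with -2.77 (SE 0.25), followed by IRF7, a regulator of interferon genes, with -1.66 (SE 0.20). STAT2, which also belongs to ISGF3, was the 1 that was higher, with 0.37 (SE 0.10). The values of IRF9 and STAT2 thus differed in sign.

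The IFIT family, RNA-binding products of interferon-stimulated genes, had, as the OAS family did, several strongly negative values and 1 nearer to 0. Of 4 tested members 3 were lower (median -3.01), IFIT1 with -4.29 (SE 0.22), IFIT3 with -3.41 (SE 0.23) and IFIT2 with -2.62 (SE 0.18). IFIT5 was negative as well, with -0.60 (SE 0.19), and narrowly missed the threshold. The ISG15 conjugation list holds the ubiquitin-like protein ISG15 and enzymes that attach or remove it. Of the 6 genes of this list 4 were tested and all 4 were lower (median -2.30). The lowest values were -3.25 (SE 0.33) for the ligase HERC5, -2.34 (SE 0.11) for ISG15 and -2.26 (SE 0.18) for HERC6. Of the other interferon-stimulated genes 11 of 20 were tested and 10 were lower (median -1.17), with RSAD2, the antiviral enzyme viperin, at -4.32 (SE 0.39), IFITM1, which blocks viral entry, at -4.11 (SE 0.26) and IFI6 at -3.74 (SE 0.15). No gene of any list was called in response to DHT with either siRNA by edgeR, and each list held between 0 and 2 genes at an unadjusted p up to 0.05. Of all genes in these fits, 1478 of 10367 in NS cells and 1663 of 10684 in SLIRP siRNA cells reached that p. Several list genes had too few reads for a test in SLIRP siRNA cells. RSAD2 held 10 reads with vehicle and 2 with DHT there, and XAF1 held 0 with either.

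**Figure D4:**
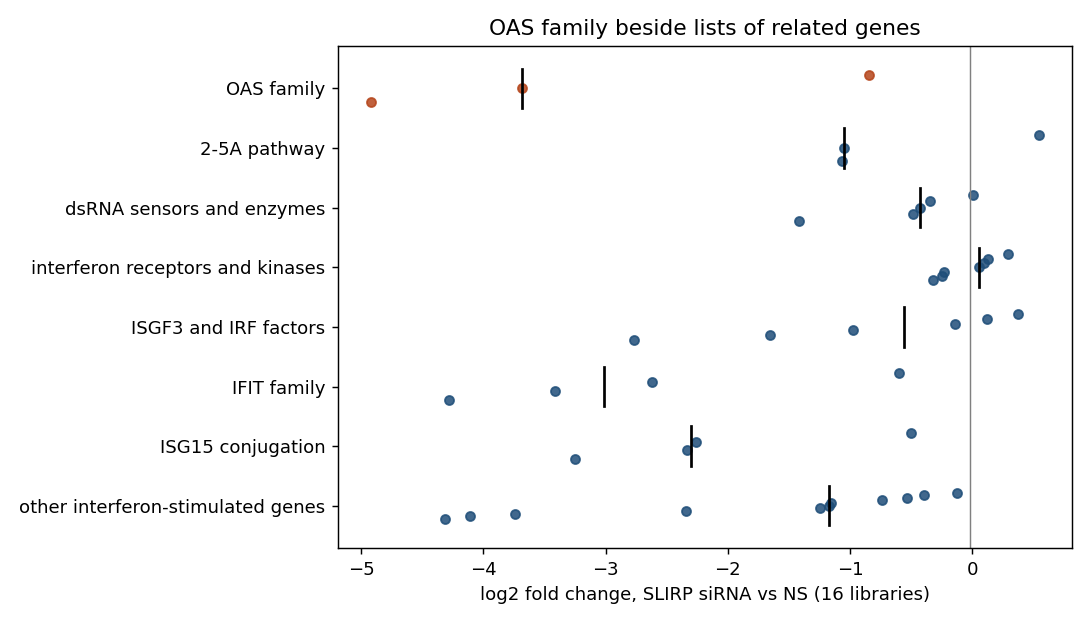
Log2 fold change of SLIRP siRNA against NS over 16 libraries (edgeR, horizontal axis) for the tested genes of the OAS family and of 7 lists of related genes. Points are genes, placed at different heights within a list so that they can be told apart, short bars are list medians and the grey line is the median of all genes, -0.01. The IFIT family has its median at -3.01 and the interferon receptors and kinases at 0.06.

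Several interferon-stimulated genes did not reach the low-count filter of the comparison over all 16 libraries, and some of them are named here after their values were seen. XAF1, IFI27 and BST2 were, as OAS2 was, kept in the fits of the 4 groups. XAF1 had 129 reads in NS libraries and 0 in SLIRP siRNA libraries, IFI27 had 77 against 1, and BST2 had 107 against 6. MX1, a standard marker of an interferon response, was in neither fit and low throughout, with 50 reads in NS and 41 in SLIRP siRNA libraries. Its mean level was 5.81 against 5.24 CPM, without the gap seen for OAS1 or OASL.

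The genes whose profile over the 16 libraries was most like the mean profile of the 4 members were sought among 10044 genes, by the root mean square difference of centred log2 CPM. ISG15 (0.29) and the helicase DDX60 (0.29) came first, followed by IFIT2 (0.35), HERC5 (0.41), SUB1 (0.42), PSAT1 (0.46), IFI44 (0.46) and CLDN12 (0.48). ISG15 went from 153 ± 20.9 CPM in NS-Veh to 28.9 ± 6.05 in SLIRP-Veh libraries, and DDX60 from 68.6 ± 11.5 to 10.4 ± 4.73 CPM (SD, n = 4). SUB1, a transcription coactivator, PSAT1, an enzyme of serine synthesis, and CLDN12, a claudin of cell junctions, are not known mainly as interferon targets. They had a similar profile, with PSAT1 at 306 ± 70.9 CPM in NS-Veh and 56.9 ± 15.0 CPM in SLIRP-Veh libraries. The measure is dominated by the gap between siRNAs, and with the correlation of deviations within groups only 1 of the 8 genes, ISG15, was named again. Among the members themselves OAS1 and OAS2 were closest (0.28) and OAS3 and OASL furthest apart (1.89). These distances depend on the prior count of 2, as OAS2 held only 3 reads after SLIRP siRNA. The fitted log2 fold changes of OAS2 (-4.67 with vehicle, -5.41 with DHT) lay nearer to those of OASL (-4.37, -5.54) than of OAS1 (-3.50, -3.84).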

How the data were processed

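RNA of 16 LNCaP libraries was sequenced as single 50-base reads. The authors deposited estimated counts, rounded to whole numbers, per gene symbol, and a normalized table, used here as a score on a linear scale and only for an alternative. Per the labels, CASAVA and RSEM were used with hg19. The versions, the annotation and the strand setting are not given in the sources used here. Replicates came, per the methods, from 2 experiments with 2 biological replicates each, and the numbers are not tied to an experiment, so p-values measure the spread between these libraries. The 4 members and all gene lists were chosen with earlier results of these data known.

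Counts were analysed in R 4.3.3 with edgeR 4.0.16 (TMM, filterByExpr, glmQLFit, glmQLFTest) and Benjamini-Hochberg adjustment over all genes tested at an FDR of 0.01. For SLIRP siRNA against NS all 16 libraries were fitted without covariates, and for DHT in NS cells the 8 NS libraries alone. The other comparisons used contrasts in a model of the 4 groups. OAS1, OAS2 and OASL passed the filter only through their NS libraries. CPM are TMM-scaled and log2 CPM for likeness used a prior count of 2 and a mean count of at least 10. Each list contributed its 3 tested genes with the largest absolute change and the likeness ranking its first 8. Beyond these, STAT2, IFIT5 and the genes below the filter were named after their values were seen, and some genes that the rules choose are not reported one by one. Lengths and positions came from GENCODE on hg19. Alternatives were DESeq2 1.42.0, limma 3.58.1 on the score with a pseudocount of 1, upper-quartile scaling, no filter, at least 10 counts in every library, the replicate block, other samples or covariates in the model, an FDR of 0.05 and leaving out each library in turn. The fits were tested on simulated data. Library totals between 436353 and 1689708 counts limit the precision for low genes.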

Additional observations from a re-analysis of the deposited data

Results flagged for a closer look

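OAS2 in the SLIRP-1nM DHT group was the 1 of 16 combinations of member and group in which a library stood apart from the other 3 by Dixon's test. Replicate 4 held 1 read, 0.798 CPM, and replicates 1, 2 and 3 held 0. With the others at 0, any value in the last library would have met the criterion, and a single read is below the limit of detection of 3 counts.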

How the results depend on the processing

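Under the alternatives run, no member that could be tested passed the threshold of 0.01 for DHT. In NS cells these were all 4 members, except 3 with at least 10 counts in every library and 2 with DESeq2. In SLIRP siRNA cells and for the difference in response OAS3 alone had enough reads. OASL in NS cells came closest, with an adjusted p of 0.0441 and a log2 fold change of 0.56 without NS-1nM DHT replicate 4, against 0.11 without replicate 1 of that group. The number of genes called for DHT in NS cells was 272 at an FDR of 0.05, 236 without a filter, 270 with the replicate block and 27 with limma, and 83 to 113 when leaving out each library, against 136. It was 83 and 87 without NS-Veh replicates 1 and 2. In SLIRP siRNA cells it was 309 at an FDR of 0.05, 220 without a filter and 62 with limma, and 73 to 120 when leaving out a library (73 without SLIRP-Veh replicate 1), against 125. For the difference between DHT responses it was 11 without a filter and 0 to 1 when leaving out a library. Same-numbered libraries correlated between -0.0374 and 0.201 in their deviations, over 0.1 in 7 of 24 pairs, and 23 of 48 best matches had the same number, against 12 if numbers were unrelated. These are a hint of shared numbers from the data, but not every pair was over 0.1 and the labels name nothing that the number marks, so the fit without the block was kept. The block moved the count in NS cells from 136 to 270 and changed no call of a member.

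The direction turned for values that had not passed a test. The OAS3 difference in DHT response was -0.036 with limma and between -0.049 and 0.27 when leaving out a library. Leaving out a library gave -0.082 to 0.37 for the DHT response of OAS2 in NS cells, and in SLIRP siRNA cells -0.52 to 0.11 for OAS1 and -1.17 to 0.11 for OASL. In the SLIRP siRNA comparisons all member values kept their direction. The low members moved most, as limma gave -5.73 for OASL over all libraries, -5.74 for OAS2 with vehicle, and -6.75 and -6.55 for OAS2 and OASL with DHT. Without SLIRP-1nM DHT replicate 4 OAS2 was at -7.06 and OAS1 at -4.21 with DHT, and without SLIRP-Veh replicate 1 OASL was at -5.27 and without replicate 3 OAS2 at -5.23 with vehicle. With at least 10 counts in every library OAS3 alone was left in the fits over all libraries. Of the 8 genes most like the members, 5 were named again with a prior count of 0.5 and 1 with within-group correlation. With a prior count of 0.5 the gene at rank 2 was C14orf156, which is SLIRP, the target of the siRNA. The causes were not tested.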
